A study of Mus musculus with 3 samples.

Results

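The transcripts of 10 genes of glucose uptake and glycolysis were followed in bone marrow (BM) cells of mice given recombinant LECT2. The genes were Slc2a1, Hk2, Gpi1, Pfkl, Aldoa, Tpi1, Gapdh, Pgk1, Pgam1 and Ldha, chosen by their symbol in the deposited tables for their place in the pathway. They are 10 of 17250 genes in the tables, and each had a single row. BM cells were flushed from C57BL/6 mice of 6 to 8 weeks, with femur, tibia, pelvis and humerus as the source. The mice received LECT2 at 300 μg per kg under the skin each day for 3 or 5 days, and a group labelled 0 days had none. There was 1 RNA library per time point, so no difference below has a replicate check, and no test between the time points was possible. How many mice each library holds, and whether the 0-day mice received a vehicle, is not given in the sources used here.

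Glycolysis splits glucose into pyruvate in the cytosol and yields ATP without oxygen. Glucose enters through carriers of the SLC2A family, a hexokinase traps it as a phosphate, and phosphofructokinase commits it to breakdown. Aldolase then splits the sugar into trioses, later enzymes oxidize these to pyruvate, and lactate dehydrogenase turns pyruvate into lactate and regenerates NAD+. Marrow is poor in oxygen in places, and neutrophils and haematopoietic stem cells are known for their reliance on this pathway. Many of its genes are targets of hypoxia-inducible factor 1 (HIF-1) and MYC.

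None of the 10 genes changed by 2-fold or more, where 4.08% of all genes were that much higher and 2.41% lower at 3 days and 15.5% and 5.91% at 5 days, and the 10 differed in direction. Aldoa, Gapdh, Pgk1 and Ldha were lower at 3 days than at 0 days and lower again at 5 days, to between 63.8% and 75.3% of their level at 0 days. Pgam1 was higher at each step and stood at 161% of its 0-day level at 5 days. The glucose carrier Slc2a1 and the second enzyme Gpi1 were higher at 3 days and lower at 5 days than at 3 days, whereas Pfkl and Tpi1 were lowest at 3 days and highest at 5 days. These orders are in RPKM, and the 3-day value of Gpi1 and the 5-day values of Pfkl and Tpi1 changed sign under a correction for scaling or gene length given below. The 3-day value of Pfkl was within counting error of that at 0 days. Of 97 neighbouring pathway genes, 3 were lower in RPKM by 2-fold or more at 5 days (the carrier Slc2a3, the lactate exporter Slc16a3 and Bpgm) and 3 were higher (Pdp2, Slc16a7 and Mlxip). With the correction for scaling 10 were lower (10.3%, where 9.96% of all genes were) and 1 higher. With that for gene length 7 were lower (7.22%, where 7.61% of all genes were) and 1 higher. In the 5-day library all 11 late neutrophil markers averaging 1 RPKM or more were lower by 2-fold or more.

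Reads on genes numbered 15523952, 15146983 and 15514673 in the libraries of 0, 3 and 5 days, and values given in threes below keep this order. Levels are in RPKM, the reads scaled to gene length and to the total reads of the library, and changes are log2 ratios of RPKM + 0.1, a scale that shrinks the ratios of scarce transcripts. The 95% intervals are exact intervals of the ratio of 2 read counts. They cover counting error only, since each time point has 1 library. Reads copied by PCR without molecular identifiers are not independent molecules, so the intervals may be too narrow even for counting error. The median log2 ratio of the 11144 genes averaging 1 RPKM or more was 0.10 at 3 days and 0.31 at 5 days against 0 days, so that an unchanged value lies below most genes at 5 days. Ratios also increased with gene length. Among genes of 1495 to 1885 bases the median at 5 days was 0.08, and among those of 4478 to 5799 bases it was 0.66. A pair of corrections were therefore used, edgeR's TMM scaling and subtraction of the length trend. Each direction they changed among the followed genes of glucose uptake and glycolysis is given. Many other genes are given in RPKM alone, and some of these also changed direction under a correction. Among them are Eno1, Pkm, Dld and Pfkfb4, which were higher at 5 days than at 0 days in RPKM and lower with either correction. A direction given in RPKM alone is therefore not shown to be stable. In bulk RNA, fewer cells of a type and less RNA per cell cannot be told apart. The marrow label was borne out by S100a9 of neutrophils at 61729 RPKM, Hba-a1 of erythroid cells at 2253 RPKM and Cd79a of B cells at 827 RPKM at 0 days. Skeletal muscle is rich in glycolytic enzymes. Its 6 markers, led by Tnnt3 and Acta1, summed to 4.88, 4.11 and 2.16 RPKM, and the fast myosins Myh1 and Myh4 had a single read each in the 0-day library and none later.

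Promoter sequences were examined for the core of the hypoxia response element, ACGTG on either strand, and for the E-box CACGTG, which contains it. The windows span 250 bases before to 50 bases after the start of a transcript (RefSeq, GRCm38.p6). Of the 10 genes, 7 had ACGTG in at least 1 window (70%), compared with 21.8% of all 27025 genes in the promoter table. CACGTG was found in 1 of the 10 genes, Ldha, and in 8.09% of all genes. The windows of Gpi1, Pfkl and Tpi1 held neither. Shown are a pair of genes that were lower at both time points, Ldha and Pgk1, and a pair that were higher in RPKM, Pgam1 and Hk2 (Hk2 was lower with the gene length trend removed), with the letters of ACGTG or its reverse complement CACGT in capitals. Ldha has 2 windows in the table, and only the one shown holds the motif. The starts of the Ldha and Pgam1 windows shown lie 35 and 52 bases from the nearest principal transcript start in GENCODE M21. Their first transcribed bases were not found in a GENCODE transcript of the gene, whereas those of Pgk1 and Hk2 were.
Ldha, chr7:46845554-46845853, plus strand: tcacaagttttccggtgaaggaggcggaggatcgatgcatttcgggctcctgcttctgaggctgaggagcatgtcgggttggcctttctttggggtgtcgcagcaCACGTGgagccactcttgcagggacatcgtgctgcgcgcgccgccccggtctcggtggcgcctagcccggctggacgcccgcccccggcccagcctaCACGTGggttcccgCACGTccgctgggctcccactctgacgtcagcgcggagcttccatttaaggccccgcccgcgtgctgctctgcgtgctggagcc
Pgk1, chrX:106186850-106187149, plus strand: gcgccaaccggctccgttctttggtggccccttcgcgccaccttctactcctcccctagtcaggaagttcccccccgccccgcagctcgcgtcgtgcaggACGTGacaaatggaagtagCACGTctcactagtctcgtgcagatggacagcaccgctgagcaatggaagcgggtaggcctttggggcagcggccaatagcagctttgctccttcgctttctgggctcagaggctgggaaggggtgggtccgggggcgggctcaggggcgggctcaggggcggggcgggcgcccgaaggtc
Pgam1, chr19:41911621-41911920, plus strand: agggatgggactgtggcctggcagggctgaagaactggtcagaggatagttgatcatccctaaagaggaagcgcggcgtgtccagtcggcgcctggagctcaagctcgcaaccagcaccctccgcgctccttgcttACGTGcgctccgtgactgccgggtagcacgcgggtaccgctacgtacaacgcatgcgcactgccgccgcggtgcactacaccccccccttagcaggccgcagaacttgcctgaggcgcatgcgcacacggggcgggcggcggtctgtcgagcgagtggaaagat
Hk2, chr6:82774405-82774704, minus strand: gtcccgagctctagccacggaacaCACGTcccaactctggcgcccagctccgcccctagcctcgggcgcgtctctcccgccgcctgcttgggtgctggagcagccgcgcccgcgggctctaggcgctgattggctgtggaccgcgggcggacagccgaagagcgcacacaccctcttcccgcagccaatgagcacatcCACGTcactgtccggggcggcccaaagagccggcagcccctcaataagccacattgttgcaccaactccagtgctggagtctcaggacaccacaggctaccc
Ldha had 5 matches, of which 4 lie within 2 copies of CACGTG. Pgk1 and Hk2 had 2 matches each and Pgam1 had 1. A match is a string of letters and not evidence of binding.

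**Figure D1:**
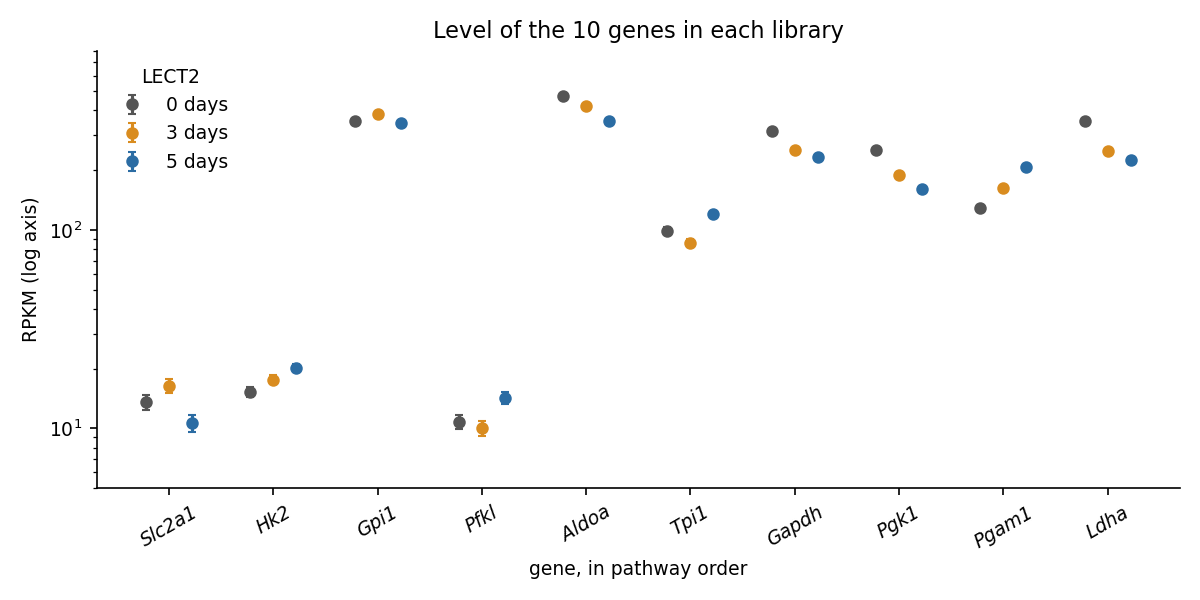
RPKM of the 10 genes (log axis), in pathway order, in the 3 libraries. Bars are 95% exact Poisson intervals of the read count. Aldoa was the most abundant in each library, at 471, 421 and 355 RPKM, and Hk2, Slc2a1 and Pfkl lay between 9.99 and 20.1 RPKM.

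The 10 genes differed in level by 43.7-fold at 0 days and by 33.4-fold at 5 days. Together they held 59358, 53234 and 51720 reads, which is 0.382%, 0.351% and 0.333% of the reads on genes. Their summed level was 2012, 1791 and 1696 RPKM. At 0 days the order of levels ran from Aldoa through Gpi1, Ldha, Gapdh, Pgk1, Pgam1, Tpi1, Hk2 and Slc2a1 to Pfkl. Gpi1 and Ldha, and Hk2 and Slc2a1, were neighbours whose counting intervals met. At 3 days the intervals of Gapdh and Ldha met, as did those of Hk2 and Slc2a1. At 5 days those of Aldoa and Gpi1 and those of Gapdh and Ldha met. Pgam1 passed Pgk1 between 3 and 5 days, from 162 against 188 RPKM to 208 against 161 RPKM.

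None of the 10 genes changed by at least 2-fold between any 2 libraries. Among all genes that reached 1 RPKM in one or other library, 4.08% were higher by 2-fold or more after 3 days and 2.41% were lower. At 5 days against 0 days these shares were 15.5% and 5.91%, and at 5 days against 3 days 1.95% and 3.45%. With a threshold of 1.5-fold none of the 10 passed at 3 days, where 16.4% of all genes were higher and 10% lower. Past the same threshold Pgam1 was higher and Pgk1 and Ldha were lower at 5 days than at 0 days, where 34.5% of all genes were higher and 12.3% lower. With TMM scaling no gene of the 10 was higher past this threshold at 5 days and 5 were lower, Slc2a1, Aldoa, Gapdh, Pgk1 and Ldha, where 19.6% of all genes were higher and 20.8% lower. With the length trend removed none was higher and 3 were lower, Slc2a1, Pgk1 and Ldha, where 14.5% of all genes were higher and 16.9% lower. Pgam1 was then at 0.38 and 0.56. Between 3 and 5 days Slc2a1 was lower past this threshold, where 17.3% of all genes were higher and 6.86% lower. None of the 10 passed 4-fold, where after 3 days 0.318% of all genes were higher and 0.291% lower. The 4-fold shares were 1.33% and 1.62% after 5 days and 0.114% and 0.923% from 3 to 5 days. The median log2 ratio of the 10 genes was −0.13 at 3 days and −0.18 at 5 days against 0 days, and −0.13 at 5 days against 3 days, where that of all genes was 0.25. The comparisons with 0 days share the 0-day library. In each of the 3 comparisons 4 of the 10 genes were higher and 6 lower. Of all genes averaging 1 RPKM or more, 57.7% were higher at 3 days and 67.6% at 5 days against 0 days, and 72.9% at 5 days against 3 days. The counts by direction in RPKM in the pathway lists below are to be read beside these shares. With TMM scaling 4 of the 10 genes were higher at 3 days and 3 at 5 days against 0 days, and with the length trend removed 2 were higher at either time. Under these 2 corrections the median of all genes at 5 against 0 days was 0.0078 and 0.0018, in place of 0.31. Counts under them, here and below, therefore have another background than the shares in RPKM.

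**Figure D2:**
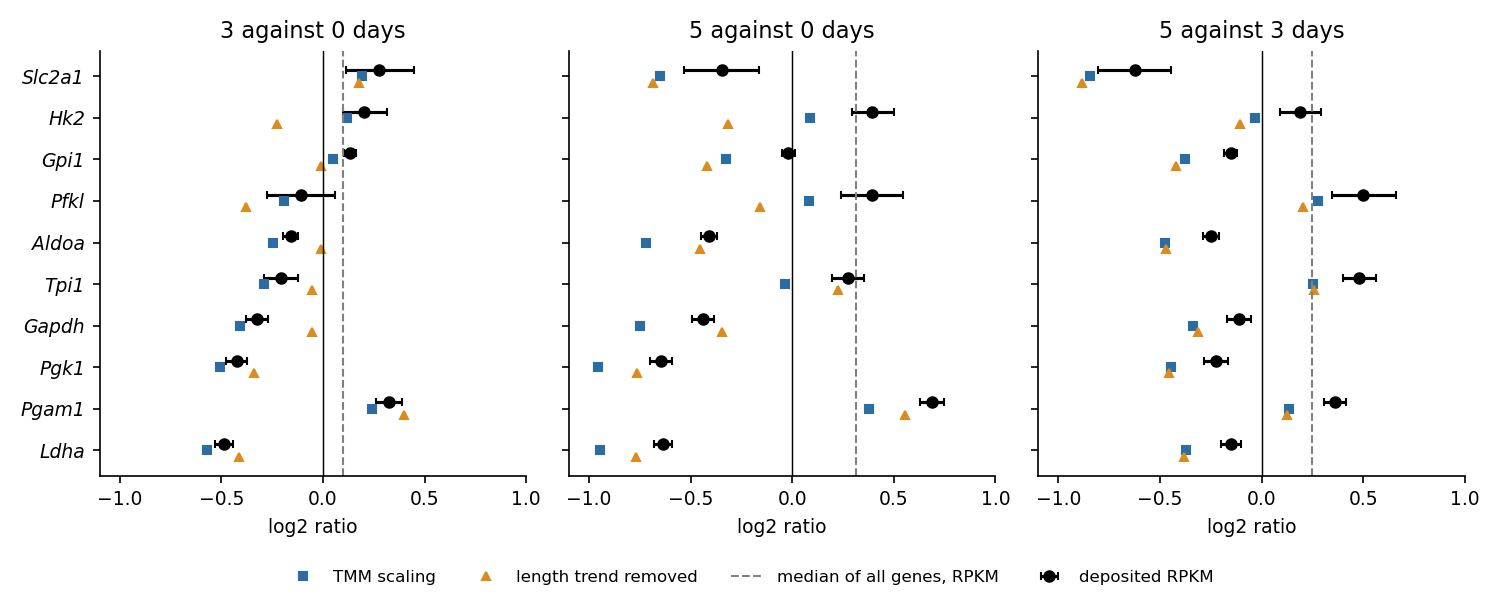
Log2 ratios of the 10 genes between each pair of libraries. Black points with 95% counting intervals are from deposited RPKM, blue squares from TMM-scaled counts, orange triangles have the gene length trend removed, and the dashed line is the median of all genes in RPKM. Pgam1 lies right of 0 in all 3 panels and Aldoa, Gapdh, Pgk1 and Ldha left of 0 in all 3 with each scaling, with Aldoa close to 0 at 3 days once the length trend is removed, whereas Hk2 changes side with the scaling in all 3.

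Uptake and trapping of glucose were read from Slc2a1 and Hk2. Slc2a1 encodes GLUT1, the widespread basal glucose carrier, and lies on chromosome 4 from 119108711 to 119137983 on the plus strand (GENCODE M21, GRCm38). Its 540, 639 and 424 reads made 13.5, 16.4 and 10.6 RPKM. The 3-day library was the highest and the 5-day library the lowest. Against 0 days the log2 ratio was 0.28 (95% interval 0.11 to 0.45) after 3 days, and it was −0.35 (−0.53 to −0.16) after 5 days. From 3 to 5 days it was −0.62 (−0.81 to −0.45), the lowest of the 10 genes at that step.

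Hk2 encodes hexokinase 2, the inducible hexokinase that binds mitochondria, and its gene is on the minus strand of chromosome 6, from 82725025 to 82774454. Its reads numbered 1310, 1473 and 1723, or 15.3, 17.6 and 20.1 RPKM at 0, 3 and 5 days. The level was higher at each later time point. The log2 ratio was 0.20 (0.10 to 0.31) at 3 days and 0.39 (0.29 to 0.50) at 5 days, but it was −0.23 and −0.32 with the length trend removed, Hk2 being the longest of the 10 genes at 5524 bases. With TMM scaling it was 0.12 and 0.09.

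The preparatory steps are carried by Gpi1 and Pfkl, which isomerize and phosphorylate the hexose. Gpi1, glucose-6-phosphate isomerase on chromosome 7 from 34201330 to 34230336 (minus strand), stood at 352, 386 and 348 RPKM from 15612, 16704 and 15400 reads. Its log2 ratio was 0.13 (0.10 to 0.16) at 3 days and −0.02 (−0.05 to 0.01) at 5 days. The 3-day value turned to −0.01 with the length trend removed, and the 5-day value was −0.33 with TMM scaling. Pfkl, the liver-type subunit of phosphofructokinase on chromosome 10 from 77986947 to 78010083 (minus strand), had 626, 566 and 822 reads, or 10.8, 9.99 and 14.2 RPKM. At 3 days its interval included 0, with a log2 ratio of −0.11 (−0.28 to 0.06), and at 5 days it was 0.39 (0.24 to 0.55), which turned to −0.16 with the length trend removed. From 3 to 5 days Pfkl was higher, by 0.50 (0.35 to 0.66) in RPKM and by 0.20 with the length trend removed.

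Aldoa and Tpi1 split fructose bisphosphate and interconvert the trioses that result. Aldoa, aldolase A on chromosome 7 from 126795234 to 126800751 (minus strand), had 11674, 10195 and 8788 reads, or 471, 421 and 355 RPKM. Each later library was lower, with a log2 ratio of −0.16 (−0.20 to −0.12) at 3 days and −0.41 (−0.45 to −0.37) at 5 days. With the length trend removed the 3-day value was −0.0093, smaller than the counting error, and the 5-day value −0.45. Tpi1, triosephosphate isomerase on chromosome 6 from 124810586 to 124814296 (minus strand), had 2468, 2088 and 2982 reads, or 99.3, 86.1 and 120 RPKM. It was lowest at 3 days, at −0.21 (−0.29 to −0.12), and highest at 5 days, at 0.27 (0.20 to 0.35), though the 5-day value was −0.04 with TMM scaling. The genes are 1597 and 1601 bases long, so that gene length does not separate them. The ratio of Tpi1 to Aldoa within a library, which no scaling of libraries can change, was 0.211 at 0 days, 0.204 at 3 days and 0.338 at 5 days. Its log2 change from 3 to 5 days was 0.73 (95% interval 0.64 to 0.82, normal approximation on the log odds of the reads).

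The payoff phase begins with Gapdh, the dehydrogenase that makes the first high-energy phosphate, and Pgk1, the kinase that passes it to ADP. Gapdh, on chromosome 6 from 125161715 to 125166467 (minus strand), had 6141, 4781 and 4528 reads, or 315, 252 and 233 RPKM. Its log2 ratio was −0.33 (−0.38 to −0.27) at 3 days and −0.44 (−0.49 to −0.38) at 5 days. With the length trend removed the 3-day value was −0.05 and the 5-day value −0.35. Pgk1, on the X chromosome from 106187100 to 106203699 (plus strand), had 7125, 5180 and 4545 reads, or 253, 188 and 161 RPKM. The log2 ratio was −0.42 (−0.48 to −0.37) after 3 days. Its 5-day ratio, −0.65 (−0.70 to −0.59), was the lowest of the 10 in RPKM.

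Pgam1, phosphoglycerate mutase 1, moves the phosphate of the next intermediate, and lies on chromosome 19 from 41911923 to 41918660 (plus strand). It had 3730, 4560 and 5998 reads, or 130, 162 and 208 RPKM, with a log2 ratio of 0.33 (0.26 to 0.39) at 3 days and 0.69 (0.63 to 0.75) at 5 days. It was higher in each later library under all 8 settings examined, with a 5-day ratio between 0.38 and 0.69. Ldha, lactate dehydrogenase A on chromosome 7 from 46841475 to 46855627 (plus strand), had 10132, 7048 and 6510 reads, or 352, 251 and 226 RPKM. It was lower in each later library, with a log2 ratio of −0.49 (−0.53 to −0.44) at 3 days and −0.64 (−0.68 to −0.59) at 5 days.

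Pgk1, Pgam1 and Ldha have nearly the same length, at 1816, 1855 and 1854 bases. The level of Pgam1 relative to Pgk1 within a library was 0.513 at 0 days, 0.862 at 3 days and 1.29 at 5 days, a log2 change of 1.33 (1.25 to 1.41) at 5 days. Relative to Ldha, Pgam1 went from 0.368 to 0.647 and 0.921, a log2 change of 1.32 (1.25 to 1.40). The ratio of Pgk1 to Ldha was 0.718, 0.75 and 0.713, and its log2 change at 5 days was −0.01 (−0.08 to 0.06). The pairs were picked for their length and position after their values were seen.

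Reads of several of these genes may be shared with near-identical copies. In GENCODE M21, 82.5% of the 50-base words of the longest principal Gapdh transcript also occur in transcripts of other genes, among them 213 pseudogenes. The share was 68% for Pgk1, 41.5% for Pgam1, 25.3% for Gpi1, 17.1% for Ldha, 13.9% for Aldoa, 7.51% for Tpi1, 1.74% for Slc2a1 and 0.0543% for Pfkl. It was 0% for Hk2. How the counting treated reads with several matches is not given in the sources used here, so that the levels of Gapdh, Pgk1 and Pgam1 in particular are uncertain.

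**Figure D3:**
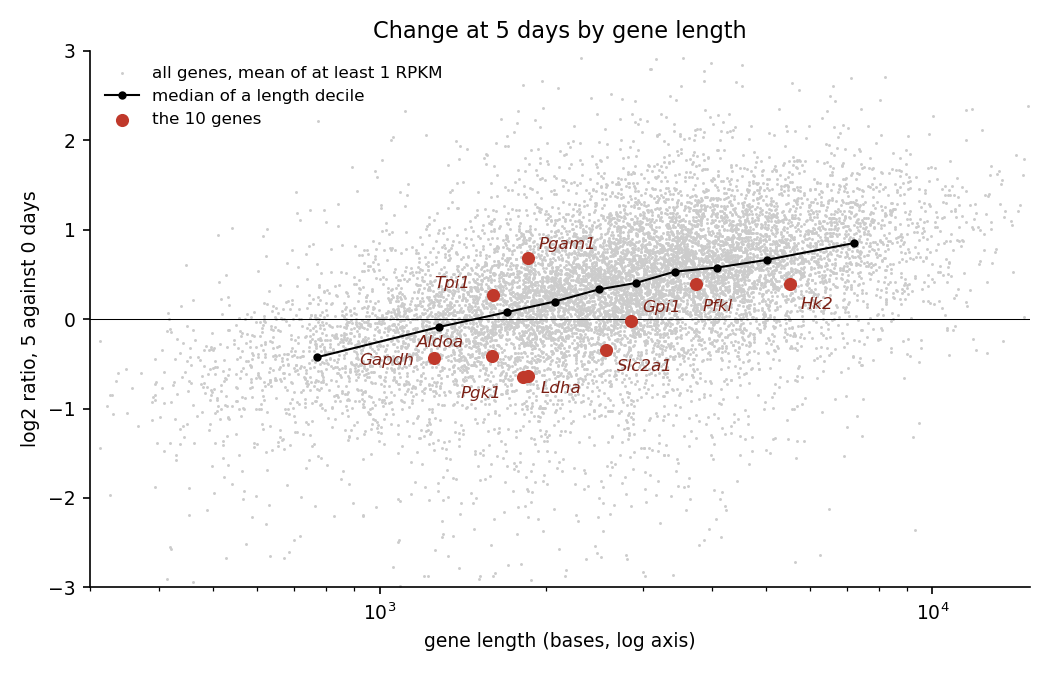
Log2 ratio of RPKM at 5 days against 0 days by gene length (log axis) for all genes averaging 1 RPKM or more (grey; values beyond ±3 and lengths outside the axis are not drawn), with the median of each length decile at its median length (black) and the 10 genes (red). Pgam1 (0.69) and Tpi1 (0.27) lie above the median line, and the other 8 genes lie below it.

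Set against genes of similar length, Pgam1 was above 86.2% of the genes of its length decile at 5 days and Tpi1 above 63.3%. Pgk1 was above 12.5%, Ldha above 12.9%, Slc2a1 above 13.5%, Aldoa above 20.6%, Gpi1 above 22.004% and Gapdh above 26.7%. Hk2 was above 30.5% and Pfkl above 36.7% of theirs, although their own ratios were positive. The genes nearest to the median pattern of the 10, out of 6090 others averaging 10 RPKM or more, were Ubxn4, Nxn, Emc2, Nub1 and C1qa. The distance over the log2 ratios at 3 and 5 days was 0.025 or less for these 5, and 103 genes lay within 0.1.

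The isoenzymes of each step shared the reads unequally. Of 18 isoenzymes and remaining enzymes averaging 1 RPKM or more, 9 were higher at 5 days, with a median of 0.03, and 5 were higher with TMM scaling and 6 with the length trend removed. Slc2a1 held 11.5% of the summed RPKM of 6 measured SLC2A carriers at 0 days (95% counting interval 10.6 to 12.4) and 16.9% (15.5 to 18.4) at 5 days. Slc2a3, encoding the high-affinity carrier GLUT3, held 67.4% at 0 days, 69.5% at 3 days and 44% at 5 days. Its own level was 79.1, 106 and 27.6 RPKM, a log2 ratio of −1.52 (−1.60 to −1.44) at 5 days, so that Slc2a3 fell more than Slc2a1. The log2 change of the Slc2a3 to Slc2a1 ratio within a library was −1.17 (−1.37 to −0.97) at 5 days and 0.15 (−0.03 to 0.32) at 3 days.

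Among Hk1, Hk2 and Hk3, Hk2 was the least abundant, with 12.2%, 11.4% and 15.5% of their summed RPKM. Hk3, the hexokinase of myeloid cells, held 70.8%, 67.8% and 54.5%. Hk1, the widespread form, held 16.9%, 20.8% and 30.02%, and its level went from 21.2 to 32.0 and 39.0 RPKM. Pfkl held 32.4%, 32.1% and 32.04% of the phosphofructokinase subunits, with the platelet type Pfkp the most abundant at 48.9%, 52.1% and 54.9%. The share of Pfkl thus moved by less than its counting interval (30.3 to 34.5 at 0 days).

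Aldoa held 99.7%, 99.7% and 99.6% of the aldolases, and Ldha held 96.0%, 95.3% and 93.3% of the lactate dehydrogenases. Ldhb, the heart-type subunit, went from 2.87% to 3.77% and 5.74%. Pgam1 held 64.2%, 60.8% and 85.6% of the phosphoglycerate mutases. The remainder was mostly Bpgm, the bisphosphoglycerate mutase that makes 2,3-bisphosphoglycerate in red cells, at 66.3, 98.7 and 29.0 RPKM. The late steps not among the 10 genes were Eno1, at 75.3, 81.3 and 79.9 RPKM, and Pkm, at 24.5, 30.1 and 27.2 RPKM in the higher of its 2 rows. Of the 50-base words of these transcripts, 72.2% and 34.4% occur elsewhere.

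**Figure D4:**
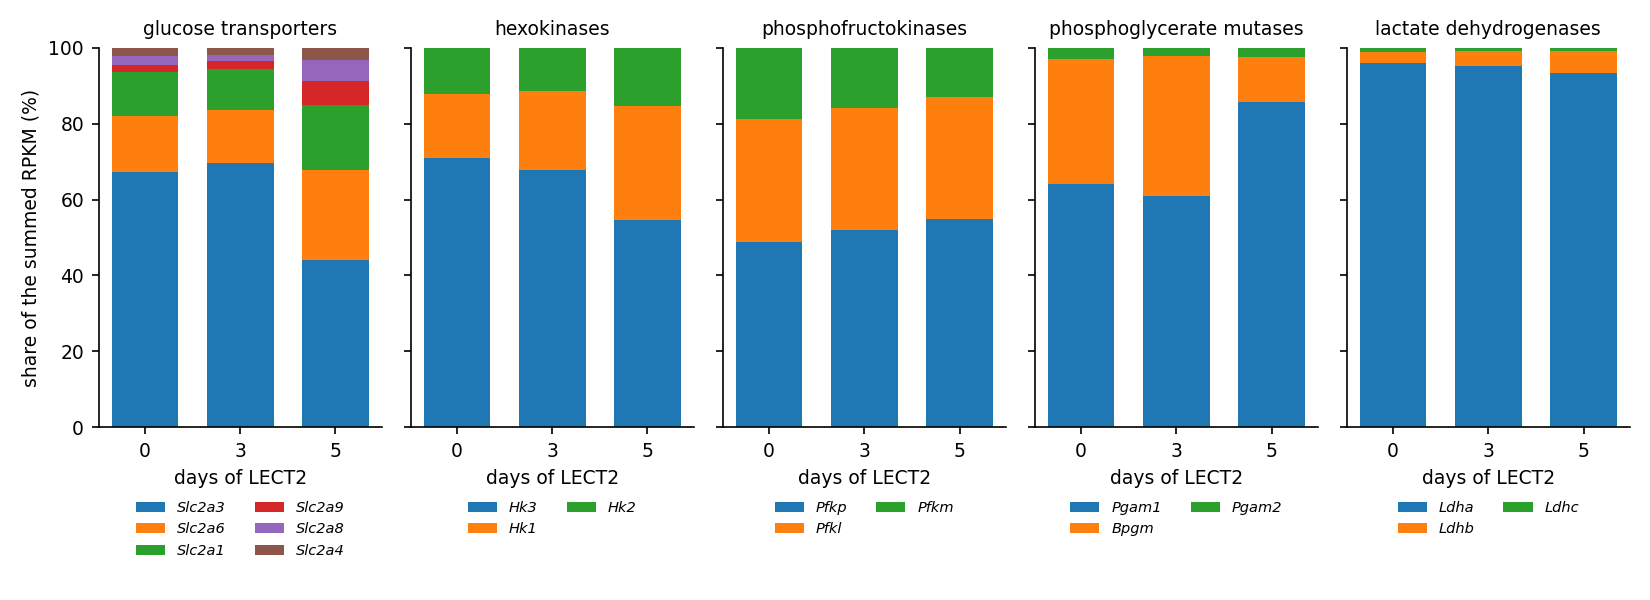
Share of each isoenzyme in the summed RPKM of its family at 0, 3 and 5 days of LECT2, 1 library per bar. The share of Slc2a3 was 67.4% at 0 days and 44% at 5 days, and that of Pgam1 was 64.2% and 85.6%.

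Neighbouring genes of the pathway were taken from lists of transporters, isoenzymes, regulators, connected pathways and hypoxia genes, with 106 of 110 listed genes having a row. The 97 that reached 1 RPKM in the 0-day or 5-day library included 3 (3.09%) that were 2-fold or more higher after 5 days and 3 (3.09%) that were lower, where all genes gave 15.5% and 5.91%. With TMM scaling 1 was higher and 10 lower (10.3%), where all genes gave 7.24% and 9.96%, and with the length trend removed 1 was higher and 7 lower (7.22%), where all genes gave 5.05% and 7.61%. Pdp2 as higher and Slc2a3, Bpgm, Slc16a3, Pygl, Max and Epas1 as lower passed under both. At 3 days 1 of 97 was higher (1.03%), Pdp2, and 1 lower (1.03%), Pygm, where all genes gave 4.08% and 2.41%. From 3 to 5 days 0 of 96 were higher and 4 lower (4.17%), namely Slc2a3, Bpgm, Slc16a3 and Pygl, where all genes gave 1.95% and 3.45%. In RPKM the genes past 2-fold at 5 days were Slc2a3, Bpgm, Slc16a3, Slc16a7, Pdp2 and Mlxip.

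Lactate leaves the cell through monocarboxylate transporters. Of the 4 genes listed, 1 was higher at 5 days, with a median of −0.16. Slc16a3, encoding the exporter MCT4 of highly glycolytic cells, had 4343, 4393 and 1084 reads, which made 112, 116 and 28.03 RPKM. At 3 days its interval included 0 (−0.01 to 0.11), and at 5 days it fell, with a log2 ratio of −1.998 (−2.10 to −1.91). Slc16a1, encoding MCT1, had 33.9, 27.2 and 33.5 RPKM, with an interval that included 0 at 5 days (−0.10 to 0.07). Its 5-day ratio was −0.32 with TMM scaling and −0.63 with the length trend removed. Bsg, the chaperone of these carriers, had 144, 101 and 116 RPKM. Slc16a7, a high-affinity carrier at 1.41 RPKM at 0 days, was higher by 1.05 (0.62 to 1.60) at 5 days and under 2-fold with TMM scaling (0.76) or the length trend removed (0.75).

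At the point of control over phosphofructokinase, 4 of 5 regulators were higher at 5 days, with a median of 0.36, where 67.6% of all genes were higher, with a median of 0.31. Pfkfb3, which makes the activator fructose 2,6-bisphosphate, had 17.1, 22.9 and 21.9 RPKM, and Pfkfb4 had 15.5, 25.9 and 17.3 RPKM. With TMM scaling 3 of the 5 were higher. With the length trend removed 1 was higher, Tigar, and Pfkfb3 was at −0.32. At the entry of pyruvate into mitochondria, 8 of 11 genes were higher at 5 days, with a median of 0.13, below the 0.31 of all genes, and 5 were higher with TMM scaling and 3 with the length trend removed. Pdhb, a pyruvate dehydrogenase subunit, had 113, 80.5 and 97.3 RPKM and the carrier Mpc1 63.8, 52.04 and 51.1 RPKM. Dld, the shared dehydrogenase subunit of the complex, had 43.3, 38.7 and 46.9 RPKM. Pdp2, a phosphatase that activates pyruvate dehydrogenase, went from 0.697 to 1.56 and 2.88 RPKM with 38, 83 and 157 reads. Its log2 ratio at 3 days, 1.06, was 0.99 with TMM scaling. The 8 higher genes also included the pyruvate dehydrogenase kinases Pdk1 (0.66), Pdk2 (0.68) and Pdk3 (0.02), so the count is not one of activators alone. These kinases are named for their role after their values were seen. Of 15 citric acid cycle genes 11 were higher at 5 days, beside 67.6% of all genes, with a median of 0.53. Of these 15, 9 were higher with TMM scaling and 12 with the length trend removed. Cs, citrate synthase, had 71.8, 80.3 and 105 RPKM, whereas Mdh2 had 143, 137 and 148 RPKM. Idh3g, a subunit of isocitrate dehydrogenase, had 109, 96.7 and 122 RPKM.

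In the pentose phosphate branch, which supplies NADPH, the median was −0.06 at 5 days, and 3 of 7 genes were higher, or 0 with TMM scaling and 1 with the length trend removed. Taldo1, transaldolase, was at 440, 348 and 227 RPKM, a log2 ratio of −0.95 (−1.01 to −0.90), whereas Tkt, transketolase, was at 283, 302 and 260 RPKM. Pgd, which makes NADPH, was at 216, 278 and 206 RPKM and thus highest at 3 days, as Slc2a1 and Gpi1 were in RPKM. With the length trend removed Gpi1 was not highest at 3 days (−0.011 against 0 days). Of the glycogen genes, Pygl, the liver-type phosphorylase, was at 186, 235 and 105 RPKM and at least 2-fold lower at 5 than at 3 days, and Pygm was at 3.003, 1.38 and 2.18 RPKM. Gyg, the primer of glycogen, had 59.97, 76.5 and 73.98 RPKM, and Ugp2, which makes UDP-glucose, had 40.9, 42.1 and 34.98 RPKM. Glycogen genes were higher in 5 of 8 cases at 5 days, with a median of 0.11, and in 2 of 8 with TMM scaling and 1 of 8 with the length trend removed. Gluconeogenic genes with a row summed to 28.9, 27.9 and 43.8 RPKM. All 4 genes averaging 1 RPKM or more were higher at 5 days, with a median of 0.60, as 3 of 4 were with TMM scaling. The most abundant were G6pc3, a glucose phosphatase, at 15.9, 14.4 and 25.2 RPKM, Pck2 at 10.3, 10.5 and 14.96 RPKM, and Pcx, pyruvate carboxylase, at 1.23, 1.83 and 2.02 RPKM.

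The genes of oxygen sensing and MYC had a median of 0.20 at 5 days, with 10 of 13 higher, beside a median of 0.31 and 67.6% higher among all genes. With TMM scaling or the length trend removed 5 of the 13 were higher, where the median of all genes was 0.0078 and 0.0018. Hif1a, the oxygen-regulated HIF-1 subunit, had 14.7, 22.04 and 25.3 RPKM, and Epas1, the HIF-2 subunit, had 1.06, 0.802 and 0.566 RPKM. Both are named for their role after their values were seen. Max, the partner of MYC, was at 156, 143 and 87.0 RPKM, a log2 ratio of −0.84 (−0.91 to −0.78). Mlxip, a glucose-responsive partner of Mlx, was at 14.1, 22.5 and 28.9 RPKM and just past 2-fold at 1.03, which was 0.72 with TMM scaling and 0.21 with the length trend removed. Mlx had 25.3, 29.6 and 29.7 RPKM, and Txnip, an inhibitor of glucose uptake, had 67.8, 84.4 and 76.1 RPKM. The HIF target genes outside glycolysis had a median of −0.08, with 5 of 11 higher, or 3 with TMM scaling or the length trend removed. Bnip3l, a mitophagy receptor, was at 98.1, 107 and 66.2 RPKM, and Ero1l, an oxidase of the endoplasmic reticulum, at 37.01, 44.7 and 45.3 RPKM. Ndrg1, a gene induced by hypoxia and iron loss, was at 23.3, 25.4 and 28.1 RPKM.

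**Figure D5:**
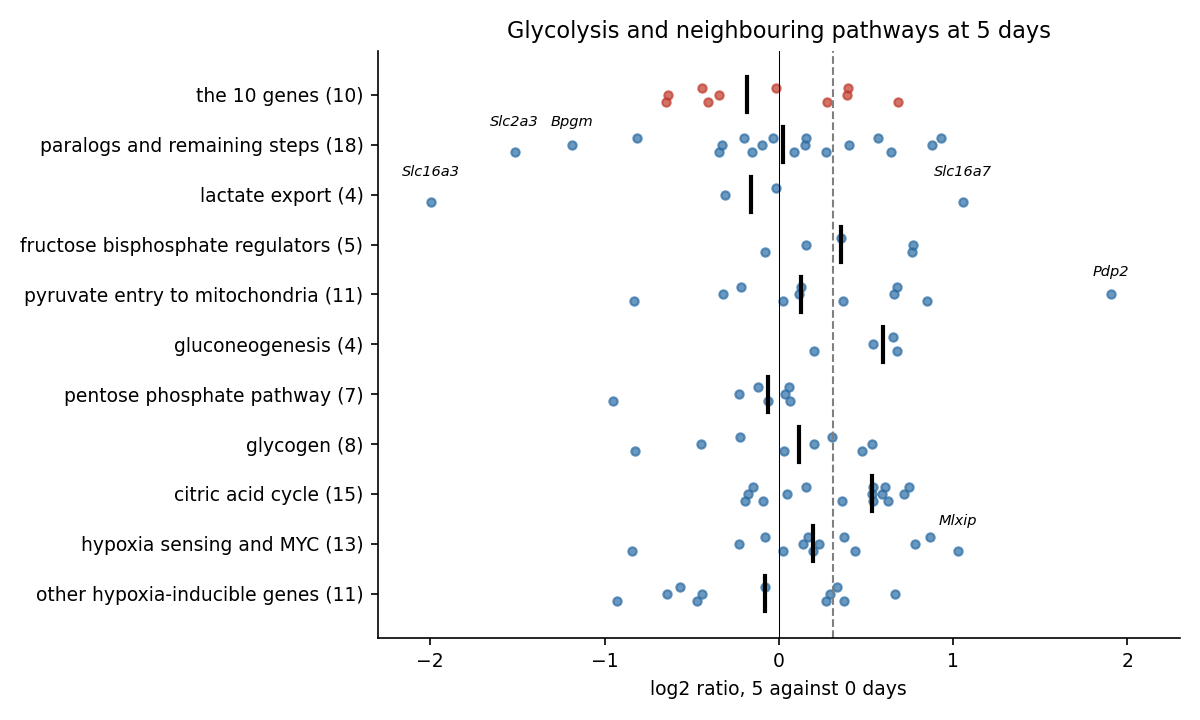
Log2 ratio of RPKM at 5 days against 0 days for the 10 genes (red) and neighbouring pathway genes (blue) averaging 1 RPKM or more, the number of genes in brackets. Black bars are list medians and the dashed line the median of all genes, 0.31. Genes past 2-fold are named, from Slc16a3 at −1.998 to Pdp2 at 1.90.

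Markers of blood cell types moved between the same libraries. Late neutrophil markers, led by S100a9 and S100a8, were lower by 2-fold or more after 5 days in all 11 cases that averaged 1 RPKM, and the 12 listed summed to 150237, 116374 and 41570 RPKM. The summed level of 8 erythroid markers, led by Hba-a1 and Hbb-b1, was 4449, 3620 and 1607 RPKM, with 4 of 8 higher at 5 days, or 1 with TMM scaling and 3 with the length trend removed. That of 10 macrophage and monocyte markers, led by Ly6c2 and Mpeg1, was 1345, 1600 and 1985 RPKM, with 8 of 10 higher, or 7 with TMM scaling and 9 with the length trend removed. All 12 genes of dividing cells, led by Pcna and Mki67, were higher at 5 days, with 9 higher under TMM scaling and 10 with the length trend removed, and 5 promyelocyte markers, led by Elane and Mpo, summed to 2241, 2075 and 3619 RPKM. B cell markers (Cd79a, Cd79b) summed to 2221, 1772 and 1595 RPKM, with 7 of 8 lower at 5 days and 1, Rag1, at 1.21, which was 0.90 with TMM scaling and 0.42 with the length trend removed. T and NK cell markers (Gzma, Cd3g) summed to 97.6, 46.9 and 61.4 RPKM. Those of stem and progenitor cells (Gata2, Cd34) summed to 84.4, 62.8 and 84.7 RPKM, with 4 of 6 lower at 5 days and Kit, named after its values were seen, at 8.19, 10.01 and 16.1 RPKM, and those of megakaryocytes (Itga2b, Ppbp) to 38.5, 19.5 and 35.3 RPKM. Of osteolineage genes, Col1a1 was at 13.7, 21.3 and 5.45 RPKM and Ibsp at 9.69, 6.48 and 4.48 RPKM, and the 3 of 5 that averaged 1 RPKM were all lower at 5 days. The part of cell composition in the levels of the glycolytic genes was not tested.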

How the data were processed

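Polyadenylated RNA from flushed BM cells was made into libraries with the Illumina TruSeq kit and sequenced on a HiSeq instrument. The authors deposited tables for each pair of time points with whole read counts per gene and RPKM, quantitated with Cufflinks according to the methods. The submitters' processing notes name build mm8, and the aligner and annotation are not given in the sources used here. Division of each count by gene length and by the total reads on genes returned the deposited RPKM within 1% except in 18 rows at 0 days and 14 at 3 days, and genes without reads, listed at 0.01 RPKM, were set to 0. The tables also hold the authors' log2 ratio, P value and false discovery rate of each pair, which were not used. Positions came from GENCODE M21 (GRCm38) and not from mm8.

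Where a name had more than 1 row, the row of highest average RPKM stood for it. A change was counted from 2-fold, among genes that reached 1 RPKM in one or other library. Exact (Clopper-Pearson) intervals of count ratios and Poisson intervals of counts are at 95%, and those of shares of summed RPKM follow from Poisson counts by the delta method. TMM (edgeR 4.0.16) and median-of-ratios factors (DESeq2 1.42.0) were computed over all rows, and the length trend was removed by lowess (statsmodels 0.14.6, span 0.3) over genes averaging 1 RPKM or more. Other alternatives were pseudocounts of 1 and 0.01, the reads outside the 100 most abundant genes and the sum of all rows of a name. The steps were tested on simulated counts. The 10 genes, the lists and the alternatives were chosen with earlier results of these data known. Besides the 10 genes, the text names the 3 most abundant genes of each pathway list, those changed by at least 2-fold, the 2 most abundant of marker lists and the 5 genes nearest to the median pattern, and, where isoenzymes are compared, the members of a family. Exceptions are named as such. Marker lists of B cells, T and NK cells, stem and progenitor cells, megakaryocytes, osteolineage and muscle were also read. Python 3.11.15 and R 4.3.3 were used.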

Additional observations from a re-analysis of the deposited data

How the results depend on the processing

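No paired analysis was possible because each time point has 1 library. With 1 library per time point, leaving out a library removes each comparison that uses it, and the comparison of 5 against 3 days is the one without the 0-day library. Aldoa, Gapdh, Pgk1 and Ldha were lower and Pgam1 was higher in all 3 comparisons under all 8 settings (the RPKM values and 7 alternatives), although Aldoa at 3 days came to −0.0093 with the length trend removed. The pseudocounts and the sum of rows left each log2 ratio of the 10 genes within its counting interval. The median of the 10 genes at 5 against 0 days was −0.18 in RPKM. It became −0.49 with TMM factors, −0.48 with median-of-ratios factors, −0.38 on leaving out the 100 most abundant genes and −0.38 on removing the length trend. At 5 against 3 days it was −0.36, −0.35, −0.24 and −0.35, compared with −0.13. At 3 days it was −0.22 under TMM and −0.06 with the length trend removed. Signs turned for Hk2 with the length trend removed (−0.23 at 3 days, −0.32 at 5 days and −0.11 between them), for Hk2 from 3 to 5 days under TMM (−0.033) and median-of-ratios scaling (−0.026), for Gpi1 at 3 days (−0.011) and Pfkl at 5 days (−0.16) with the length trend removed, and for Tpi1 at 5 days under TMM (−0.035) and median-of-ratios scaling (−0.025). With a 1.5-fold threshold 3 of the 10 genes passed at 5 against 0 days and 1 at 5 against 3 days, in place of 0. Combinations of this threshold with a scaling were chosen after seeing the data. They gave 5 genes with TMM and 3 with the length trend removed at 5 against 0 days, all lower, and 1 with either at 5 against 3 days, and Pgam1 no longer passed. The count stayed at 0 past 4-fold, and past 2-fold with the minimum raised to 5 RPKM or dropped. The 10 genes had at least 424 reads in each library. Counting error still spanned 0 for Pfkl at 3 days and Gpi1 at 5 days. The spread between mice is unknown.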

Other observations

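Gapdh and Pgk1 are in common use as reference genes for relative expression, and were set beside 10 other such genes, a list chosen after the data were seen. At 5 against 0 days the log2 ratio of RPKM was −0.44 for Gapdh and −0.65 for Pgk1, −0.94 for Actb, −0.26 for B2m, −0.24 for Rplp0, −0.19 for Ppia, 0.06 for Hprt, 0.54 for Sdha, 0.63 for Tbp, 0.72 for Tubb5, 1.10 for Ywhaz and 1.27 for Gusb. With TMM scaling Gapdh was at −0.75 and Hprt at −0.24. Ywhaz was listed at only 1.66 RPKM at 0 days. The level of another gene relative to Gapdh or to Gusb would therefore differ by 1.70 on the log2 scale of RPKM at 5 days. With the length trend removed Gapdh was at −0.35 and Gusb at 0.96, and B2m (0.07) and Ppia (0.23) turned sign. With 1 library per time point the spread of these ratios between mice is unknown.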
